A study of Arabidopsis thaliana with 12 samples.

Results

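The mTERF genes mTERF9 (AT5G55580) and AT1G62150 of Arabidopsis thaliana were followed over 12 samples, through the 2 of 3439 array probes that list one of them and no other gene. They are 2 of 689 genes with such a probe. Both were chosen by their psak against WT difference in these same samples, mTERF9 as a gene with higher and AT1G62150 as a gene with lower values in psak. That difference is therefore given as a description, without a test. Total RNA was measured in 6 samples of the psak mutant in ecotype Columbia 0, a line without the photosystem I protein PSI-K, and in 6 wild-type samples of the same ecotype (WT). The labels give neither the tissue, age and growth of the plants nor the mutant allele. They number the samples 1 to 6 in each genotype without saying whether these came from separate plants, so part of the spread between them may be technical. Numbers 1-2, 3-4 and 5-6 tended to be alike within a genotype. The SD over probes of the log2 difference between 2 samples of such a pair was 0.516 to 0.809 in psak and 0.487 to 0.831 in WT. For samples of different pairs it was 0.609 to 1.08 in psak and 0.701 to 0.886 in WT, so the ranges overlapped. If the 2 samples of a pair are repeat measurements of 1 RNA, which the labels do not settle, there are 3 independent samples per genotype and not 6.

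mTERF proteins take their name from a mitochondrial transcription termination factor of animals. They are encoded in the nucleus, imported into chloroplasts or mitochondria, and built from repeats of a helical motif that binds nucleic acids; plants have a large family of them that acts in the transcription, RNA processing and translation of organelle genes. mTERF9 is a chloroplast protein known for its part in the assembly of chloroplast ribosomes and in chloroplast development. AT1G62150 is a member whose own role is not stated here. The genes for the photosystem core proteins are read in the chloroplast, whereas PSI-K itself is encoded in the nucleus.

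AT1G62150 lies on chromosome 1 in a run of related genes. By gene order in TAIR10.1 (RefSeq), 9 of the 30 genes from AT1G61960 to AT1G62150 belong to the mTERF family, and the nearest of them, AT1G62120, is separated from AT1G62150 by 1 gene. mTERF9 lies on chromosome 5. The probe sequences were not used here, so cross-hybridisation between related genes was not tested.

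The measurements were intensities on the scale of 0 to 100 that the authors deposited, and both probes were above 0 in all 12 samples. Summed intensities per sample were 2968 to 3416 in psak and 2967 to 3460 in WT. The psak samples 5 and 6 stood apart: 18.1% and 19.4% of their probes were at 0, against 13.0% to 13.6% in the other psak samples and 13.8% to 16.5% in WT. Their log2 medians of the values above 0, -2.15 and -2.20, were below those of all other samples (-1.66 to -1.25). The number of samples limits the precision of every value. No single-gene probe for PSAK was found in the probe table, so its level could not serve as a check of the labels.

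mTERF9 had deposited intensities of 0.903, 0.996, 0.871, 0.802, 0.426 and 0.420 in psak samples 1 to 6, against 0.453, 0.301, 0.453, 0.452, 0.575 and 0.534 in WT samples 1 to 6. The psak samples 1 to 4 lay above all WT samples, and psak samples 5 and 6 lay inside the WT range. The mean was 0.736 ± 0.251 in psak and 0.461 ± 0.0939 in WT (SD, n = 6 each), a ratio of 1.60. The spread was wider in psak, where samples 5 and 6 lay apart from samples 1 to 4. In RNA of whole samples, a change in the share of cells that express a gene and a change in its RNA per cell cannot be told apart.

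AT1G62150 had deposited intensities of 0.704, 0.780, 0.598, 0.675, 0.291 and 0.340 in psak samples 1 to 6, against 0.981, 1.07, 1.01, 0.901, 1.40 and 1.64 in WT samples 1 to 6. All 6 psak samples lay below all 6 WT samples. Over the array, 9.25% of 2358 probes above 0 in all samples were separated in this direction. The mean was 0.565 ± 0.202 in psak and 1.17 ± 0.288 in WT (SD, n = 6 each), a ratio of 0.484. The lowest values of this gene were in psak samples 5 and 6 and the highest in WT samples 5 and 6.

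**Figure D1:**
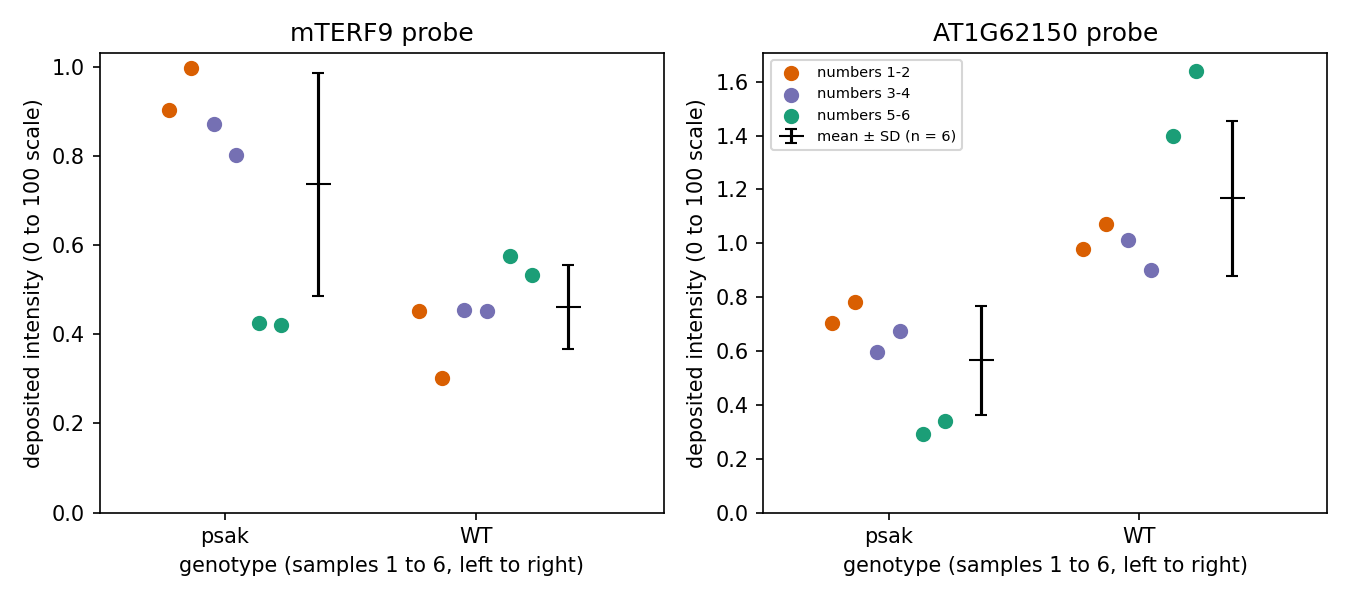
Deposited intensity (linear scale of 0 to 100, y axis) of the mTERF9 probe and the AT1G62150 probe in psak and WT; each point is a sample, coloured by number pair, and the bar is the mean ± SD of 6 samples. For mTERF9 the psak samples 5 and 6 (0.426 and 0.420) sit within the WT range of 0.301 to 0.575, while for AT1G62150 every psak sample is below every WT sample.

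The 2 samples of a number pair mostly had similar values. For mTERF9 the order of the pair means of the deposited intensity was 0.950 in psak 1-2, 0.837 in psak 3-4, 0.555 in WT 5-6, 0.453 in WT 3-4, 0.423 in psak 5-6 and 0.377 in WT 1-2. Of these neighbours only psak 5-6 and WT 1-2 had overlapping values, and the WT 1-2 values (0.301 and 0.453) also reached those of WT 3-4. For AT1G62150 the order from the lowest up was 0.316 in psak 5-6, 0.636 in psak 3-4, 0.742 in psak 1-2, 0.956 in WT 3-4, 1.03 in WT 1-2 and 1.52 in WT 5-6. Here only WT 3-4 and WT 1-2 overlapped. In the deposited values the order of the pairs thus differed between the genotypes for both genes: numbers 5-6 were the lowest pair of psak and the highest pair of WT. For mTERF9 the WT part did not stand out after the quantile normalization described next. There WT samples 5 and 6 were at -1.05 and -1.17 (log2), against -1.11, -1.12 and -1.15 in WT samples 1, 3 and 4.

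On the log2 scale the samples were quantile normalized, which gives every sample the same distribution of values above 0. mTERF9 then stood at -0.34 ± 0.40 in psak and -1.20 ± 0.20 in WT (SD, n = 6 each), a psak minus WT difference of 0.86. AT1G62150 stood at -0.76 ± 0.34 in psak and 0.08 ± 0.28 in WT, a difference of -0.83. After normalization neither gene overlapped between the genotypes, which was also so for 6.23% of the 2358 probes with psak higher and for 5.6% with psak lower. These shares are the background of a separation that chose the genes, and nothing further is read from it. In the limma fit of all 12 samples, 14.8% of 2993 probes passed an adjusted p of 0.05, 8.12% with psak higher and 6.72% with psak lower. With number pairs as a random block 5.15% passed.

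Taken by number pair, the normalized psak minus WT difference of mTERF9 was 1.31 for numbers 1-2, 1.01 for 3-4 and 0.27 for 5-6. With the values as deposited these differences were 1.36, 0.89 and -0.39, so for numbers 5-6 the direction of mTERF9 turned with the scaling. The median difference of all probes in the deposited values was 0.31 for numbers 1-2, 0.25 for 3-4 and -0.90 for 5-6. After each sample was centred on its own median, mTERF9 was at 0.99, 0.68 and 0.50. Numbers 5-6 therefore gave the smallest difference under all 3 scalings, and a negative one only in the deposited values. The deposited pattern, psak higher for 1-2 and 3-4 and lower for 5-6, was found for 41% of 2758 probes. Higher normalized values in psak in all 3 pairs were found for 20.1% of 2758 probes.

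AT1G62150 was lower in psak in each number pair under all 3 scalings. Its normalized differences were -0.42 for numbers 1-2, -0.49 for 3-4 and -1.58 for 5-6. As deposited they were -0.47, -0.59 and -2.27, and after median centring -0.84, -0.80 and -1.38. Lower normalized values in psak in all 3 pairs were found for 22.6% of 2758 probes, and lower deposited values for 22.7%. Without samples 5 and 6 of both genotypes, an alternative added with the data in view, the normalized difference of AT1G62150 was -0.44, and that of mTERF9 was 1.10.

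**Figure D2:**
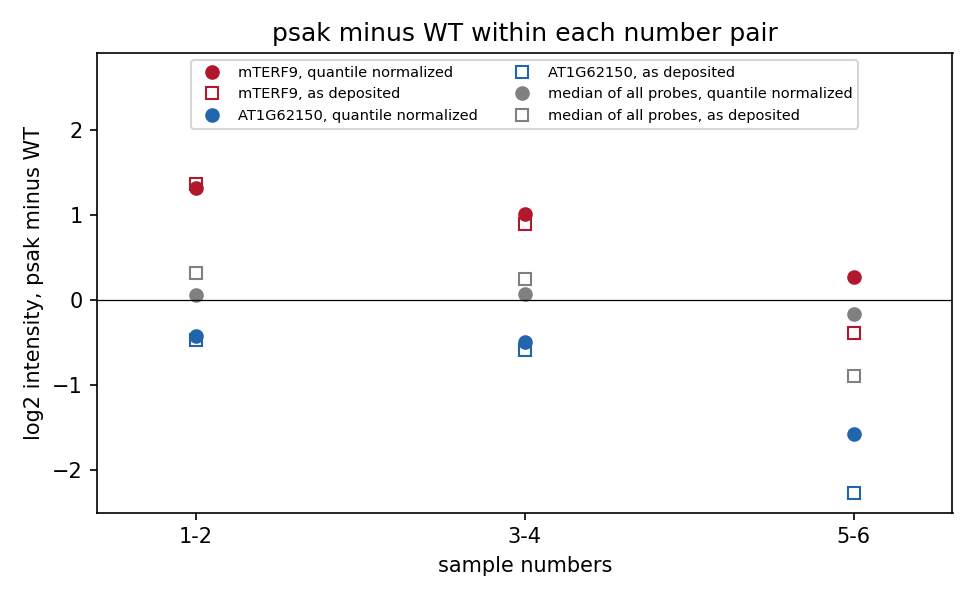
Log2 intensity, psak minus WT (y axis), for sample numbers 1-2, 3-4 and 5-6 (x axis); red points are mTERF9, blue points AT1G62150 and grey points the median of all probes, filled after quantile normalization and open as deposited. Both genes are lowest at numbers 5-6, where mTERF9 is at 0.27 normalized and -0.39 as deposited, and AT1G62150 at -1.58 and -2.27.

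Whether these differences varied among the number pairs does not rest on the mean difference that chose the genes, and was tested with limma's moderated F test of the interaction between genotype and number pair. The spread in this test is that between the 2 samples of a number pair. If these are repeat measurements of 1 RNA, the test sets the pairs against technical spread alone. The interaction passed for AT1G62150 (F = 19.4, limma adjusted p = 0.00908) and for mTERF9 (F = 10.3, limma adjusted p = 0.0320). It also passed for 26% of the 2358 probes tested, so that variation among pairs was common on the array. Leaving out 1 sample keeps the other sample of its pair, so such omissions cannot show whether a call rests on 1 pair. For AT1G62150 the call remained when any 1 of the 12 samples was left out (limma adjusted p from 0.0151 to 0.0475). For mTERF9 it was lost without psak sample 2, 3, 5 or 6 or WT sample 3, 4, 5 or 6, with limma adjusted p over all 12 omissions from 0.00816 to 0.120.

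Number pairs within a genotype differed as well. The moderated F test over both genotypes gave an adjusted p of 0.0152 for AT1G62150 and 0.0270 for mTERF9 with limma, and 42.1% of all probes passed it. For mTERF9 this call was lost in the same 8 omissions (limma adjusted p over all 12 from 0.00743 to 0.105). Numbers 5-6 were also the pair of psak with the lowest log2 medians of all values above 0 (-2.15 and -2.20) and the pair of WT with the highest (-1.29 and -1.28). The part of these sample-wide shifts in the pair differences that remain after normalization was not tested.

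The opposite movement between genotypes and the shared movement among samples can be seen together in the log2 difference of the 2 genes within a sample, mTERF9 minus AT1G62150. Its absolute size depends on the brightness of the 2 probes, so only its change between samples is read. It was 0.47, 0.43, 0.66, 0.30, 0.43 and 0.22 in psak samples 1 to 6, against -0.99, -1.58, -1.10, -0.94, -1.35 and -1.69 in WT samples 1 to 6. The genotypes did not overlap, and their means, 0.42 ± 0.15 in psak and -1.28 ± 0.31 in WT (SD, n = 6 each), differed by 1.70. By number pair the difference was 1.73 for 1-2, 1.51 for 3-4 and 1.85 for 5-6. As deposited it was 1.83, 1.47 and 1.88, with a mean of 1.73. A shift of a whole sample cancels in this measure, and the psak samples 5 and 6 did not stand apart in it. Since one gene was chosen as higher and the other as lower, the direction and the size of this difference follow from the choice and were not tested.

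Around the mean of their own genotype the genes moved together in psak. Both were above it in psak samples 1 to 4 and below it in psak samples 5 and 6, so that all 6 samples had both genes on the same side. This rests on the split of psak samples 5 and 6, which stood apart over the whole array, from samples 1 to 4. How many other probes share this split was not counted. In WT this was so for 3 of 6 samples after normalization and for 4 of 6 as deposited. In psak the SD of the difference between the genes, 0.15, was below the SD of either gene, 0.40 for mTERF9 and 0.34 for AT1G62150. In WT it was 0.31, above the SD of mTERF9 (0.20) and of AT1G62150 (0.28).

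**Figure D3:**
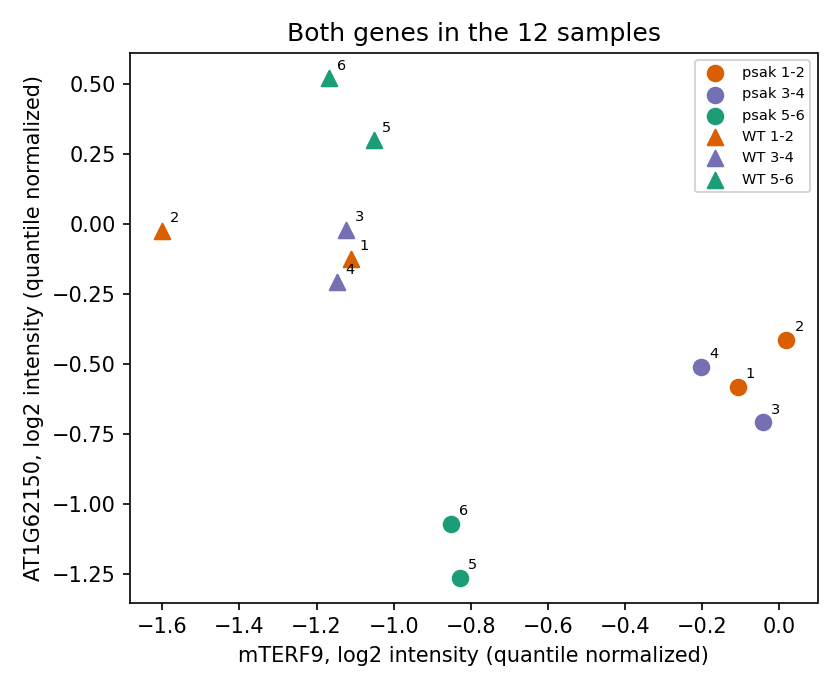
Quantile-normalized log2 intensity of mTERF9 (x axis) and AT1G62150 (y axis) in psak (circles) and WT (triangles); each point is a sample with its number, coloured by number pair. The psak samples lie to the lower right of the WT samples, and psak samples 5 and 6 are lower than psak samples 1 to 4 for both genes.

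Likeness to other genes was measured as Pearson r of the normalized log2 values over 12 samples, after the mean of each genotype was subtracted so that the genotype difference did not enter. The 12 samples share their number pairs, and r is given as a description. Among 475 single-gene probes, those most like mTERF9 were AT3G24190 (r = 0.96), AT2G28390 (MON1; r = 0.96) and AT1G01730 (r = 0.93). Those most like AT1G62150 were AT5G10910 (r = 0.93), AT5G36470 (r = 0.91) and AT1G50390 (r = 0.88). Between mTERF9 and AT1G62150 r was 0.69, which placed AT1G62150 at rank 88 for mTERF9 and mTERF9 at rank 59 for AT1G62150. The median r over the 475 probes was 0.21 for mTERF9 and 0.19 for AT1G62150. With the values as deposited the median r was 0.62 and 0.61, so much of the likeness in the deposited values was common to the array.

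Of 35 genes of the Arabidopsis mTERF family, 8 had a single-gene probe. The family was listed from general knowledge of these loci, since the probe table gives locus names only. Besides mTERF9 and AT1G62150 these were AT1G61990 and AT1G62010, both of the run of genes on chromosome 1, and AT1G79220, AT3G18870, AT3G46950 and AT4G09620. None of these 6 passed in either direction (limma adjusted p from 0.457 to 0.877), against 14.8% of the 2993 tested probes. The random block gave limma adjusted p from 0.709 to 0.948, so again none passed, against 5.15% of these probes. Before adjustment 0 of 6 had a limma p under 0.05, against 29.2% of all probes. Their median log2 difference was -0.06, against 0.00 for all tested probes, and 3 had values above and 3 below 0. In the deposited values 2 were above and 4 below 0, with a median of -0.27, against -0.11 for all probes.

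The lowest value was that of AT3G46950, which had deposited intensities of 0.480 ± 0.248 in psak and 0.653 ± 0.232 in WT (SD, n = 6 each) and a log2 difference of -0.33 ± 0.28 (SE). AT1G62010 stood at -0.18 ± 0.17 and AT4G09620 at -0.23 ± 0.29. The values above 0 were those of AT1G79220 (0.24 ± 0.32), AT3G18870 (0.11 ± 0.24) and AT1G61990 (0.06 ± 0.21). The SEs come from the fit of 12 samples and make no allowance for what number pairs share.

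For numbers 5-6 the normalized difference was below 0 in 5 of these 6 genes, against 58.4% of 2758 probes, and above 0 in AT3G18870 (0.77). It was -1.36 for AT3G46950, whose values for 1-2 and 3-4 were 0.32 and 0.03, and -0.81 for AT1G79220, whose values were 0.35 and 1.20. In the deposited values all 6 were below 0 for numbers 5-6, from -2.25 to -0.19, as were 83.5% of all probes, whose median was -0.90. The interaction with number pair passed for none of the 6 (limma adjusted p from 0.0608 to 0.600, with 4 at an unadjusted p under 0.05), against 26% of all probes at the adjusted and 39.5% at the unadjusted threshold. Number pairs within genotype differed for 2 of them, AT4G09620 (limma adjusted p = 0.00464) and AT3G18870 (limma adjusted p = 0.0451), against 42.1% of all probes. Whether mTERF9 or AT1G62150 differs from the rest of the family in these measures was not tested.

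**Figure D4:**
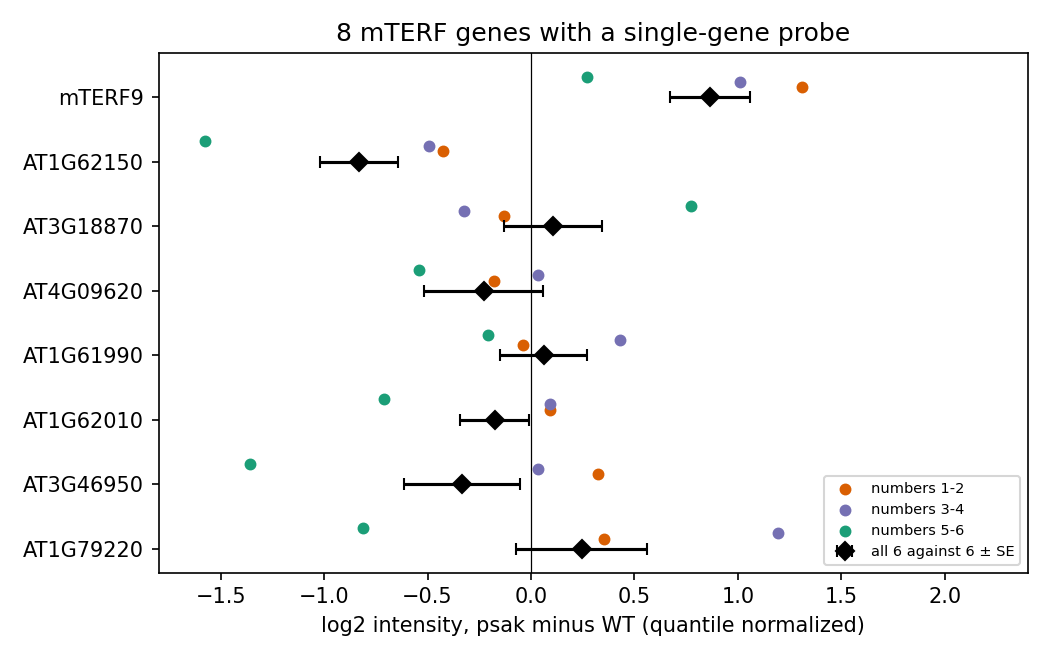
Quantile-normalized log2 intensity, psak minus WT (x axis), of the 8 mTERF genes with a single-gene probe; black diamonds are the difference of 6 against 6 samples ± SE and coloured points the differences by number pair. mTERF9 (0.86) and AT1G62150 (-0.83), chosen for these differences, lie at either end, and the other 6 genes are between -0.33 and 0.24.

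Another 6 probes list several genes that all belong to the mTERF family and cannot be given to 1 of them. Probe 4364 lists mTERF9 together with a second mTERF gene. Its deposited intensities were 0.315, 0.390, 0.296, 0.259, 0.138 and 0.122 in psak samples 1 to 6, against 0.0122, 0.0141, 0.217, 0.232, 0.499 and 0.427 in WT samples 1 to 6. As with the deposited values of the mTERF9 probe, psak 5-6 were the lowest pair of psak and WT 5-6 the highest pair of WT. All psak values of probe 4364, 0.122 to 0.390, lay within its WT range of 0.0122 to 0.499, which was not so for the mTERF9 probe. The log2 ratio of its pair means, psak over WT, was 0.31 for numbers 3-4 and -1.83 for 5-6. For numbers 1-2 psak was higher, and no ratio is given because the WT values were close to 0.

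Probe 4021 lists 3 mTERF genes. It had 0.401, 0.369, 0.400, 0.390, 0.306 and 0.139 in psak samples 1 to 6, against 0.780, 0.669, 0.772, 0.703, 1.71 and 1.83 in WT samples 1 to 6. All psak samples were below all WT samples, as for 9.25% of the 2358 probes above 0 in all samples, and the log2 ratios of the pair means were -0.91, -0.90 and -2.99. Which of the 3 genes this probe measured cannot be told. Probe 2165 was at 0 in 6 of 6 psak samples and in 5 of 6 WT samples.

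The genotypes overlapped for the other 3 of these probes. Probe 1484 ranged from 0.289 to 0.606 in psak and from 0.240 to 0.745 in WT, with log2 ratios of the pair means of -0.03 for numbers 1-2, 0.47 for 3-4 and -0.92 for 5-6. Probe 1496 ranged from 0.190 to 0.501 in psak and from 0.376 to 0.766 in WT, with ratios of -0.48, 0.22 and -1.45. Probe 1514 ranged from 0.251 to 0.652 in psak and from 0.439 to 0.675 in WT, with ratios of 0.25, -0.13 and -1.09. Numbers 1-2 and 3-4 were of opposite sign in each of these 3 probes, and numbers 5-6 were below 0.

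Of the other gene lists, only that of the chloroplast chaperonin Cpn60, which folds imported and newly made proteins, had single-gene probes, for 2 of its 6 genes. Cpn60beta4 had 0.384 ± 0.212 in psak and 0.240 ± 0.0579 in WT, a log2 difference of 0.62 ± 0.30 (SE; limma adjusted p = 0.192). Cpn60beta3 had 0.368 ± 0.165 in psak and 0.311 ± 0.0775 in WT, a log2 difference of 0.27 ± 0.19 (limma adjusted p = 0.364). Neither passed. Lists of organelle transcription (22 genes), plastid RNA maturation (30) and plastid translation factors (11), and those of reproductive and meristem (10), root (5) and leaf mesophyll markers (4), had no single-gene probe and were not analysed here.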

How the data were processed

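The values were the intensities deposited by the authors, linear and between 0 and 100, with 1 value for each probe in a sample. Scanning, background correction and scaling are not given in the sources used here. Gene names came from the array's probe table, in which 692 list 1 gene, 870 several, and 1877 probes are unnamed here; 690 single-gene probes matched a locus of TAIR10.1. Zeros were set to missing; log2 intensities were quantile normalized, and probes with at least 2 values per genotype (2993) were fitted with limma 3.58.1 in R 4.3.3 (psak minus WT, two-sided, Benjamini-Hochberg). The F tests used the 2358 probes above 0 in all samples. The named genes were the 2 mTERF genes, every other mTERF gene with a single-gene probe, the 3 probes most like each, and list members that passed. No list member passed; the 2 Cpn60 genes are named outside this rule, after their values were seen, as the members of a list that had probes. The genes and lists were chosen with earlier results of these data known.

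Simulated data of 2993 probes, 200 of them changed, were used to test the fits: for psak against WT, 47% and 80% of changes of 1 and 2 on the log2 scale were recovered, with 5 false of 132 calls. For the interaction, 29% and 39% of shifts of 2 and 3 in 1 number pair of psak were recovered, with 2 false of 70 calls; for number pairs within genotype, 38% and 53%, with 7 false of 98 calls. Simulated samples were independent, with each probe's spread around its genotype means, which includes the differences among number pairs. Real samples of a number pair were alike (consensus correlation 0.590). Neither the recovery nor the share of false calls, for psak against WT or for the F tests, can therefore be carried over to these data. Figures were drawn with matplotlib 3.10.9.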

Additional observations from a re-analysis of the deposited data

Results flagged for a closer look

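Outliers were sought in 18 groups of 6 log2 values, those of the 8 single-gene mTERF probes and of the difference between mTERF9 and AT1G62150 in each genotype. In 1 of them a sample lay far from the other 5: WT sample 2 for mTERF9, whose gap to the nearest sample was 0.788 of the whole range, above Dixon's critical value for 6 samples. Chance marks about 1 in 20 groups of independent values. Without WT sample 2 the normalized log2 difference of mTERF9 was 0.77.

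By the test of the interaction itself, the psak minus WT difference varied among the number pairs for both genes. The limma adjusted p was 0.00908 for AT1G62150 and 0.0320 for mTERF9. The same test passed for 26% of the 2358 probes, so passing it did not set these genes apart. With 1 sample left out, the call remained in 12 of 12 omissions for AT1G62150 and in only 4 of 12 for mTERF9. The spread in this test is that between the 2 samples of a number pair. The labels do not settle whether these are repeat measurements of 1 RNA. In both genes numbers 5-6 gave the lowest difference.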

How the results depend on the processing

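Across these alternatives the difference of all psak against all WT samples kept its sign for both genes, while that of mTERF9 within numbers 5-6 was 0.27 normalized and -0.39 as deposited. Both genes were chosen by the difference of all samples in these same data, so its kept sign is a description and no test. The log2 difference of mTERF9 was 0.62 as deposited and 0.77 to 0.94 with 1 sample left out; that of AT1G62150 was -1.11 as deposited and -0.91 to -0.72 with 1 sample left out, and -0.44 without samples 5 and 6 of both genotypes. Their difference was 1.61 to 1.76 with 1 sample left out. With an offset of 0.1 the log2 differences were 0.74 and -0.73. The count of other mTERF genes called by limma was 0 with any 1 sample left out and under every other setting. Over the array, 444 probes were called (243 higher, 201 lower in psak), 421 as deposited (146 and 275), 266 median centred, 154 with the random block (consensus correlation 0.590), 0 with pair means (465 of 2965 at an unadjusted p under 0.05 with limma), 947 without psak samples 5 and 6, 775 without samples 5 and 6 of both genotypes, and 327 to 583 with 1 sample left out. The cause was not tested.

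Whether same-numbered samples are pairs across genotypes is not said by the labels, and the main fit did not pair them. The deviations of same-numbered samples correlated at 0.08 to 0.24. These correlations were low, but 6 of 6 psak samples correlated best with their own number in WT, so a pairing is not excluded. With the replicate block of numbers 1 to 6, 432 probes were called, and with number pairs as a block 657; the differences of mTERF9 and AT1G62150 stayed 0.86 and -0.83.

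The interaction with number pair was called for 614 probes, for 1261 as deposited and for 339 to 652 with 1 sample left out, and number pairs within genotype for 993, or 703 to 1013. As deposited, the interaction had limma adjusted p of 0.00271 for mTERF9 and 0.000651 for AT1G62150. With 1 sample left out the limma adjusted p of the interaction was 0.00816 to 0.120 for mTERF9 and 0.0151 to 0.0475 for AT1G62150, and that of pairs within genotype 0.00743 to 0.105 and 0.0228 to 0.0494. A number pair left with 1 sample was then assumed to vary like the others. The omissions in these F tests, the fit without samples 5 and 6 of both genotypes and the number-pair block were chosen after seeing the data.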
